A study of Mus musculus with 16 samples.

Results

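The genes described here are 38 markers of glial cells, the non-neuronal cells of the nervous system: 14 astrocyte genes, 12 genes of the oligodendrocyte lineage and 12 microglia genes. They were taken from a list of identity and reactivity markers and are 38 of 21770 annotated protein-coding mouse genes. Their m6A peaks were read from cortical peri-infarct tissue of male C57BL/6J mice by MeRIP-seq, in which fragmented RNA is pulled down with an antibody against N6-methyladenosine (m6A) and sequenced. In the MCAO/R groups a nylon filament occluded the middle cerebral artery for 2 h, and tissue was taken after 0 h, 6 h or 24 h of reperfusion, and the groups are named for this time (MCAO/R-24 h, for example, or 24 h for short). Sham mice had the same surgery without the filament. Each of the 4 groups had 2 immunoprecipitated libraries and therefore 2 peak lists, 8 in all. The sources do not say whether animals were pooled or whether the 2 libraries of a group came from different mice, so the spread between them may be technical.

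Astrocytes take up glutamate, move water and potassium through channels and gap junctions, and turn reactive after injury. Oligodendrocyte progenitors mature under a set of lineage transcription factors into cells that wrap axons in myelin. Microglia are the resident macrophages, which survey the tissue through chemokine, purine and growth factor receptors and make the C1q complement proteins. The m6A mark is placed on messenger RNA by a methyltransferase complex that prefers the motif RRACH (R is A or G, H is A, C or U), often in long internal exons and near the stop codon, and it influences how long a transcript lasts and how well it is translated.

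A gene counted as marked in a list when a peak on its strand overlapped its exons by at least 1 base. The height of a peak was read only as its score percentile, the percentage of peaks in the same list with a lower score, because the scale of the score is not defined. Peaks of different lists that shared exonic bases were joined into regions, numbered from the 5′ end of each gene. The lists held 18775 to 24078 peaks each, 169564 in all, of which 404 lay in the 38 genes. A peak is called from immunoprecipitated over input RNA, so a transcript with few fragments can lack a peak whatever its methylation. Input RNA is not analysed here, and therefore a change in RNA amount, in the number of cells of a type or in methylation cannot be told apart, and the read depth behind a peak is unknown. Both lists of any group against both lists of another give an exact permutation p of 0.33 at the least, so counts of peaks are given without a test.

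Short stretches around RRACH sites are shown for a selection of the regions whose values are given further on: 5 of the 8 found in all lists, and 4 of the 11 gained or lost after reperfusion. Each is 25 bases of the GRCm39 genome on the strand of the gene, written as DNA with the motif in capitals, and each was looked for first in the stretch that most lists shared, GGACU before other GGAC forms and these before the rest.

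Gja1 region 9, 3′ UTR, chr10:56266251-56266275, plus strand, in all 8 lists: tgtaagctaaAGACAcctaccagtt
Sox9 region 7, 3′ UTR, chr11:112676441-112676465, plus strand, in all 8 lists: aaattcctttGGACActtttttttt
Sox10 region 4, coding sequence, chr15:79040540-79040564, minus strand, in all 8 lists: tgtggccagtGGACActctgcctgg
Pdgfra region 6, coding sequence, chr5:75353102-75353126, plus strand, in all 8 lists: agattcacctGGACTtcctaaagag
P2ry12 region 6, coding sequence, chr3:59124657-59124681, minus strand, in all 8 lists: caagaagaaaGGACAagaaggtggc
Gjb6 region 4, 3′ UTR, chr14:57360934-57360958, minus strand, absent from Sham: ctctgtctgaGGACAgtttaatgag
Olig2 region 7, 3′ UTR, chr16:91025105-91025129, plus strand, absent from Sham: cttgacaaaaGAACAacatcaaaaa
Cx3cr1 region 4, 3′ UTR, chr9:119879631-119879655, minus strand, absent from Sham: agaatgtcctGAACTctccaagggt
Serpina3n region 1, coding sequence, chr12:104375045-104375069, plus strand, absent at 24 h: ggacacaactGGACAgtctcacatt

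The motif was searched on the strand of the transcript only. The presence or absence given above is that of the region, and not of the printed site. For Sox10 region 4 and Serpina3n region 1 the site lay outside the stretch shared by most lists, in the rest of the region. The Sox10 site lay at -412 nt from the stop codon, upstream of the Sham peaks described further on. The Serpina3n site lay within the peaks of MCAO/R-0 h replicate 2 and MCAO/R-6 h replicate 2 only, and in no Sham peak. Of the 8 glial regions in all lists, 7 (87.5%) held RRACH in the 101 nt around their centre, and so did 87.2% of the 4508 such regions of all protein-coding genes. GGACU was in 1 of the 8 (12.5%) and in 15.9% of the 4508. Member peaks held 17.6 ± 1.10 RRACH sites per kb (SD, n = 8 lists), peaks of all protein-coding genes averaged 18.7 per kb, and the whole member transcripts held 14.6 per kb. A match is a string of letters and does not show which adenosine was methylated.

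Of the 38 genes, 29 (76.3%) were marked in at least 1 list, beside 52.5% of all protein-coding genes, and 10 (26.3%) were marked in all 8, beside 18.8%. The 10 were Aqp4, Gja1 and Sox9 among astrocyte genes, Olig1, Olig2, Sox10, Pdgfra and Cspg4 in the oligodendrocyte lineage, and Cx3cr1 and P2ry12 in microglia. A peak was found in no list for 9 genes: Gfap, Lcn2 and C3; Mag, Mobp and Cnp; and Aif1, Trem2 and Tyrobp. Some markers often used to stain these cells were thus among the unmarked. Gfap is the intermediate filament of astrocytes, Aif1 encodes the microglial protein IBA1, and Mag, Mobp and Cnp encode myelin proteins. Other such markers were marked, Mbp in 4 lists and Sox9, Olig2 and P2ry12 in all 8.

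**Figure D1:**
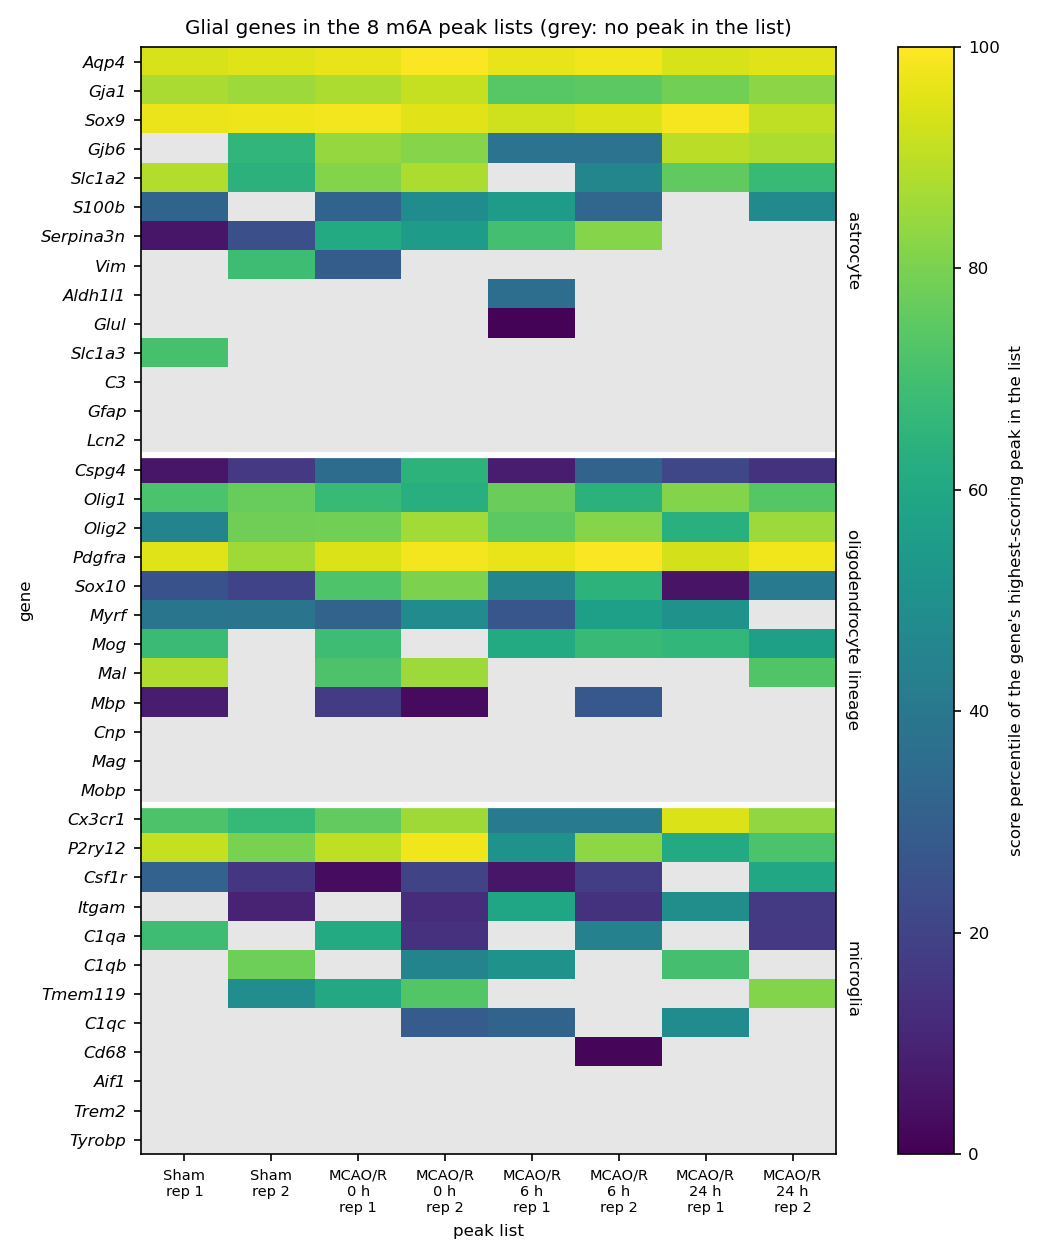
Rows are the 38 glial genes by class and columns the 8 peak lists; colour gives the score percentile (0 to 100) of the gene's highest-scoring peak in that list, and grey means no peak. Aqp4, Sox9 and Pdgfra were bright in every list, 9 genes were grey throughout, and Serpina3n was grey in both MCAO/R-24 h lists.

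Among all genes the share marked rose with transcript length, and among members it did not rise from every bin to the next. By the longest coding transcript, a peak was present in 2 of 5 members shorter than 1500 nt (40%, all genes 17.5%), in 14 of 17 between 1500 and 3000 nt (82.4%, all genes 42.8%), in 4 of 6 between 3000 and 4500 nt (66.7%, all genes 62.7%) and in 9 of 10 of at least 4500 nt (90%, all genes 78.7%). The share of marked genes was higher for members in each of these bins. RNA levels were not analysed here, and their part in that was not tested.

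By role, the transcription factors were marked in more lists than the myelin and filament genes. The 5 glial transcription factors (Sox9, Olig1, Olig2, Sox10 and Myrf) were marked in 39 of 40 gene and list combinations (97.5%), the exception being Myrf in MCAO/R-24 h replicate 2. The progenitor surface genes Pdgfra and Cspg4 were marked in 16 of 16. The 6 myelin genes (Mbp, Mog, Mag, Mobp, Cnp and Mal) were marked in 14 of 48 (29.2%). Outside the set Ermn, a myelin gene, had a peak in all 8 lists, and the transcription factors Nkx2-2 and Tcf7l2 in 4 each. In astrocytes, the 5 channel and transporter genes (Aqp4, Slc1a2, Slc1a3, Gja1 and Gjb6) were marked in 31 of 40 (77.5%), the enzyme and calcium-binding genes Aldh1l1, S100b and Glul in 8 of 24 (33.3%), and the filament genes Gfap and Vim in 2 of 16 (12.5%). Among microglia genes, the 6 surface receptors (Cx3cr1, Csf1r, P2ry12, Tmem119, Trem2 and Itgam) were marked in 33 of 48 (68.8%), the 3 C1q genes in 12 of 24 (50%), and Tyrobp, Aif1 and Cd68 in 1 of 24 (4.17%). Of all protein-coding genes, 30.6% to 36.8% were marked per list. The myelin share (29.2%) and the enzyme and calcium-binding share (33.3%) thus lay close to that of all genes. These role groups were drawn up after the values were seen and are a description.

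The number of marked members did not separate the groups beyond a few genes. Sham lists held 20 and 19 marked members, 0 h lists 22 and 23, 6 h lists 21 and 21, and 24 h lists 17 and 19. The group means were 19.5 ± 0.707, 22.5 ± 0.707, 21 ± 0 and 18 ± 1.41 (SD, n = 2 each). Both 0 h values lay above both Sham values, and the higher 24 h value equalled the lower Sham value. Of all protein-coding genes, 30.6% and 32.7% were marked in Sham, 32.8% and 36.8% at 0 h, 35.1% and 36.3% at 6 h, and 32.2% and 35.2% at 24 h. Among marked members, the median of the best score percentile was 70.1 and 67.1 in Sham, 70.6 and 73.1 at 0 h, 51.2 and 56.5 at 6 h, and 70.3 and 72.8 at 24 h, while over all marked genes it was 64.5 to 68.0. The 6 h lists were the lowest in this median; the genes marked differ from list to list, and it was not tested.

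**Figure D2:**
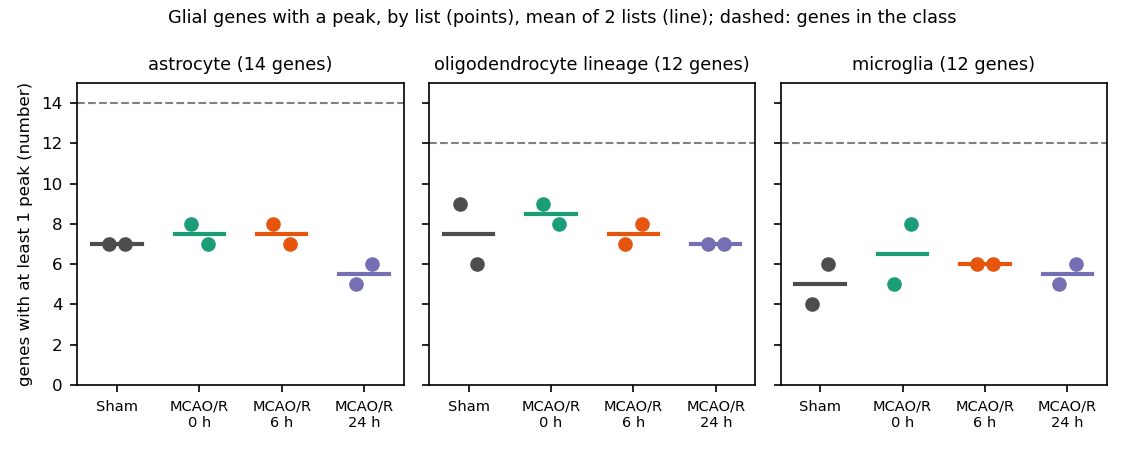
Each point is the number of genes with at least 1 peak in one list, the line is the mean of the 2 lists of a group, and the dashed line is the number of genes in the class. Astrocyte genes numbered 5 and 6 in MCAO/R-24 h against 7 to 8 in the other groups, and in the other classes every group overlapped with Sham.

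In total peaks, Sham held 49 ± 1.41 in member genes, 0 h 59.5 ± 2.12, 6 h 47.5 ± 2.12 and 24 h 46 ± 11.3 (SD, n = 2). The whole lists held 18775 and 20152 peaks in Sham, 19837 and 24078 at 0 h, 22205 and 23200 at 6 h, and 19072 and 22245 at 24 h. Member peaks at 24 h differed between the 2 lists, with 38 and 54, by more than the Sham and 6 h means did. By class, oligodendrocyte lineage peaks numbered 24 ± 2.83 at 0 h and 18.5 ± 2.12 in Sham, microglia peaks 15 ± 5.66 and 11.5 ± 2.12, and astrocyte peaks 20.5 ± 0.707 and 19 ± 1.41. Microglia peaks at 0 h spanned 11 to 19 between the 2 lists, so the difference from Sham lay within their spread.

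The peaks formed 128 regions, 41 in astrocyte, 55 in oligodendrocyte lineage and 32 in microglia genes. Of these, 64 (50%) were found in a single list and 8 (6.25%) in all 8, beside 51.1% and 9.72% of the 46370 regions of all protein-coding genes. Libraries of the same group and of different groups shared member regions to an extent that differed by less than the SD between pairs: regions in both lists divided by regions in either averaged 0.362 ± 0.0352 over 4 pairs within a group and 0.353 ± 0.0413 over 24 pairs between groups (SD; pairs share libraries). Over all regions the same ratios were 0.389 ± 0.0135 and 0.376 ± 0.0114.

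Along the transcript, 6.19% of the 404 member peaks were centred in the 5′ UTR, 48.8% in the coding sequence and 45.0% in the 3′ UTR, beside 5.64%, 58.2% and 36.1% of peaks of all protein-coding genes. By class, 58.9% of microglia peaks were in the 3′ UTR, against 44.5% of astrocyte and 37.0% of oligodendrocyte lineage peaks, and 58.4% of the last were in the coding sequence. Peaks of one gene share its transcript, and the many coding peaks of Cspg4, whose coding sequence is the longest of the set, weigh in the oligodendrocyte share. By list, the 3′ UTR held 32% and 35.4% of member peaks in Sham, 48.3% and 47.5% at 0 h, 41.3% and 46.9% at 6 h, and 47.4% and 59.3% at 24 h. Every MCAO/R list was above both Sham lists, while over all protein-coding genes the share was 36.2% and 34.5%, 34.3% and 38.2%, 35.1% and 35.9%, and 36.5% and 37.6% in the same order, so that the groups overlapped at 0 h and 6 h. With 38 to 61 member peaks a list, from genes marked in different lists, this difference was not tested. Centres within 200 nt of the stop codon made up 16.7% to 26.8% of member peaks per list, beside 19.6% to 20.8% of peaks of all protein-coding genes. No group stood apart in this share, since its lowest and highest values were MCAO/R-6 h replicate 2 and MCAO/R-0 h replicate 2, and their partners held 25.6% and 18.5%.

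**Figure D3:**
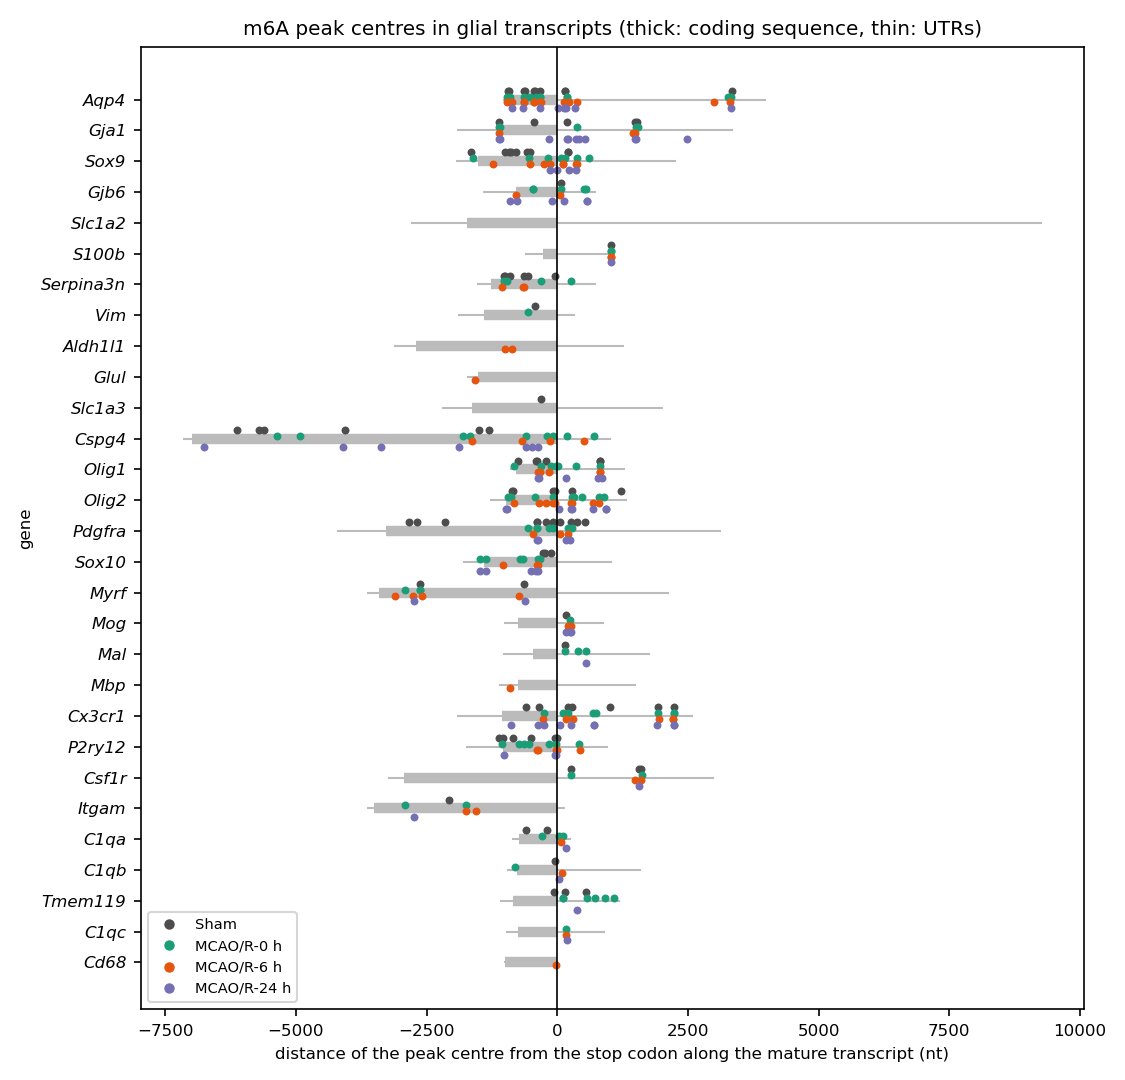
Points are peak centres by distance from the stop codon (nt, upstream negative) for the 29 marked genes, coloured by group; thick grey bars are coding sequence and thin lines UTRs of the transcript with the longest coding sequence. The 372 peaks that fall on it are drawn, and the other 32, all those of Slc1a2 among them, lie on another transcript; peaks of Aqp4, Olig2 and Pdgfra from all 4 groups gather near the stop codon.

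The most strongly ranked astrocyte regions were the stop codon flanks of Aqp4 and Sox9. Aqp4 encodes the water channel of astrocyte endfeet, and its region 5, whose most shared stretch was centred 33 nt past the stop codon, had score percentiles of 94.0 and 95.0 in Sham, 96.8 and 99.4 at 0 h, 96.6 and 97.8 at 6 h, and 93.9 and 95.0 at 24 h. All 8 values were above 93, and the 0 h and 6 h values lay above both Sham values. Sox9, a transcription factor of astrocytes and their precursors, had in its 3′ UTR region 7 (most shared stretch centred 105 nt past the stop codon) percentiles of 97.2 and 97.4, 98.2 and 95.7, 92.8 and 94.7, and 98.6 and 90.6 in the same order of groups. The 6 h values were below both Sham values, and the other groups bracketed them.

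Gja1 encodes connexin 43, the main astrocyte gap junction protein, and carried regions in all 8 lists in a 5′ UTR and in the 3′ UTR. Region 9, 1472 nt into the 3′ UTR, had percentiles of 83.5 and 85.4 in Sham, 79.6 and 91.1 at 0 h, 71.7 and 74.9 at 6 h, and 55.7 and 78.3 at 24 h. The 5′ UTR region 2, on a different annotated transcript, had 59.0 and 58.8, 51.2 and 64.6, 38.4 and 52.7, and 17.0 and 45.1. In both regions every 6 h and 24 h value was below both Sham values, and the 24 h lists were far apart. The limma differences from Sham at 24 h, in units of the normal score of the rank, were -0.55 (SE 0.31, adjusted p 0.681) for region 9 and -0.76 (SE 0.33, adjusted p 0.615) for region 2, and neither passed the test. All 8 lists shared 25 nt of region 9, while its full extent of 1986 nt came from a second peak of 1711 nt in MCAO/R-24 h replicate 2.

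In the oligodendrocyte lineage, Pdgfra, the growth factor receptor that marks progenitors, had the highest ranks. Its region 6 runs across the stop codon, and its highest-scoring peak had percentiles of 95.3 and 85.9 in Sham, 94.9 and 98.4 at 0 h, 96.7 and 99.5 at 6 h, and 93.5 and 97.8 at 24 h. That peak was centred in the 3′ UTR in 6 lists and in the coding sequence, at -388 nt from the stop codon, in replicate 2 of Sham and replicate 1 at 24 h, so these values do not compare one peak. The coding peak itself had 79.7 and 85.9 in Sham, 80.2 and 83.2 at 0 h, 93.0 in replicate 1 at 6 h, and 93.5 and 83.7 at 24 h, and in replicate 2 at 6 h it was joined to the 3′ UTR in a single peak. Olig1, a basic helix-loop-helix factor of the lineage, had in coding region 2 percentiles of 71.6 and 70.0, 63.1 and 62.7, 70.6 and 62.9, and 81.4 and 73.5 in that order. The 0 h values were below and the 24 h values above both Sham values, with limma differences of -0.22 (SE 0.25, adjusted p 0.939) and 0.21 (SE 0.25, adjusted p 0.850). The peak of MCAO/R-0 h replicate 2 was centred at -23 nt from the stop codon and lay outside the stretch shared by the other 7 lists.

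Sox10, a factor that drives myelin gene transcription, had the widest range of ranks among the 8 regions. The percentiles of its coding region 4 were 25.0 and 20.1 in Sham, 72.5 and 80.1 at 0 h, 45.4 and 64.7 at 6 h, and 5.34 and 33.9 at 24 h. Both 0 h and both 6 h values lay above both Sham values, and the 24 h values lay on either side of them. The limma difference at 0 h was 1.48 (SE 0.40) with an unadjusted p of 0.00605 and an adjusted p of 0.532, and at 6 h 0.89 (SE 0.40, adjusted p 0.566). Relative to the stop codon, the Sham peaks were centred at -117 to -267 nt and the highest-scoring 0 h peaks at -655 and -330 nt, so the region joined neighbouring peaks through those of other lists. Where peaks were joined only if they shared 50% of the shorter one, 7 member regions were in all 8 lists and the limma test gave none of them an unadjusted p under 0.05 at 0 h.

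Among microglia genes, P2ry12 alone had a region in all 8 lists. It encodes the purine receptor of homeostatic microglia, and its region 6, at the end of the coding sequence, had percentiles of 91.1 and 77.8 in Sham, 90.6 and 97.8 at 0 h, 51.0 and 83.0 at 6 h, and 61.1 and 71.7 at 24 h. Both 24 h values were below both Sham values, with a limma difference of -0.63 (SE 0.40, adjusted p 0.722). Cx3cr1, the fractalkine receptor, was marked in every list through different regions. Its 3′ UTR region 3 had percentiles of 72.1 and 65.5 in Sham, 75.9 and 85.8 at 0 h, 24.2 and no peak at 6 h, and 94.7 and 83.8 at 24 h. The 6 h lists were the lowest and the 24 h values lay above both Sham values.

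**Figure D4:**
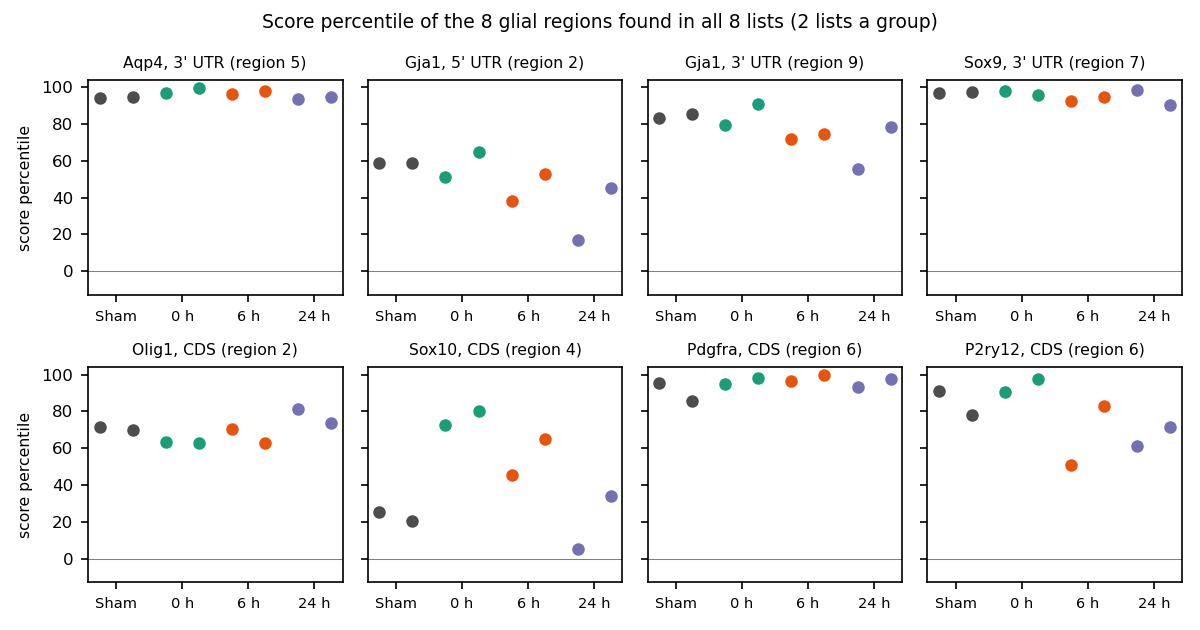
Points are the score percentile (0 to 100) of each of the 8 member regions found in all 8 lists, 2 lists a group, coloured by group. The Aqp4, Sox9 and Pdgfra regions stayed above 85 in every list, and the Sox10 region ranged from 5.34 to 80.1.

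The limma fit took the 4508 regions of protein-coding genes found in all 8 lists, with the normal score of the rank of the best peak as the value. It called 0 regions (0%) at an adjusted p of 0.05 at any of the 3 times against Sham, hence 0 of the 8 member regions. At an unadjusted p under 0.05 there were 296, 417 and 354 of the 4508 regions, and 1 (Sox10), 0 and 0 of the member regions. The smallest adjusted p of a member was 0.532, 0.550 and 0.615 at the 3 times, and 0.569 in the F test over them. The median difference of the 8 member regions from Sham was 0.30 at 0 h, -0.23 at 6 h and -0.21 at 24 h, where that of all 4508 was 0.09, 0.11 and 0.09. Members lay above Sham in 5 of 8 regions at 0 h, 3 of 8 at 6 h and 2 of 8 at 24 h; these comparisons share the Sham lists.

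A gene or region was called gained when both lists of a time held a peak there and the 2 Sham lists did not, and lost in the reverse case. No member gene was gained at 0 h, 6 h or 24 h, when 3.59%, 4.81% and 3.91% of the 11436 marked protein-coding genes were. None was lost at 0 h or 6 h, when 1.40% and 1.52% of marked genes were, and 1 of the 29 marked members (3.45%), Serpina3n, was lost at 24 h, when 2.20% were. Leaving out a Sham list loosens the definition: without Sham replicate 1 or 2, 4 and 2 members were gained and 0 and 1 lost at 0 h, 2 and 2 gained and 2 and 2 lost at 6 h, and 1 and 2 gained and 2 and 3 lost at 24 h.

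Serpina3n encodes a secreted serine protease inhibitor that is a standard marker of reactive astrocytes. The best percentile of its peaks was 6.13 and 24.3 in Sham, 61.2 and 54.7 at 0 h, and 70.2 and 81.8 at 6 h, and neither 24 h list held a peak. Every 0 h and 6 h value was above both Sham values before the peaks went missing. The best peak lay in region 4 in Sham replicate 1, in region 1 in Sham replicate 2 and at 0 h, and in region 2 at 6 h. These values therefore do not compare one peak. Most of the peaks were in the first part of the coding sequence, in region 1 (5 lists) and region 2 (3 lists), and 1 of the 13 was in the 3′ UTR. All Sham peaks of the gene ranked in the lower part of their lists. When only the higher-scoring 50% of each list was kept, 0 members were lost at 24 h. Serpina3n has close paralogs in the genome, and reads that mapped to several places were removed by the authors. The other reactivity genes of the set, Lcn2 and C3, had no peak in any list.

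Among regions, 4 of 128 (3.13%) were gained at 0 h (all regions 2.61%), 2 (1.56%) at 6 h (3.44%) and 5 (3.91%) at 24 h (2.50%). Losses were 1 (0.781%) at 0 h (all regions 1.34%), 2 (1.56%) at 6 h (1.46%) and 3 (2.34%) at 24 h (1.95%). These shares lay close to those of all regions. The counts rest on both lists of a group being there: with any 1 of the Sham or reperfusion lists left out, regions gained numbered 8 to 21 at 0 h, 4 to 18 at 6 h and 7 to 19 at 24 h, and regions lost 3 to 14, 4 to 19 and 5 to 18.

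Olig2, the factor that specifies the oligodendrocyte lineage, held the 1 member region gained at all 3 times. Its 3′ UTR region 7, about 900 nt past the stop codon, was in neither Sham list and had percentiles of 78.9 and 53.9 at 0 h, 71.2 and 27.0 at 6 h, and 40.0 and 41.1 at 24 h. The ranks spread widely at 0 h and 6 h. In 5 of these 6 lists the peaks shared a stretch of 125 nt, and the 6 h replicate 2 peak, centred 691 nt past the stop codon, lay outside it and was joined to the others through peaks of further lists, so the gain at 6 h rests on how peaks were joined. Sham replicate 2 did hold a peak further along the same 3′ UTR, centred 1216 nt past the stop codon with a percentile of 33.6. Elsewhere in Olig2, 3′ UTR region 5 was in Sham replicate 2 and every MCAO/R list, so the gene itself was marked in all groups.

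Gjb6, which encodes connexin 30, gained 3′ UTR region 4 at 0 h (82.4 and 81.9) and at 24 h (67.1 and 87.7) but had no peak there in either 6 h list. Cx3cr1 region 4 in the 3′ UTR followed the same order of presence, with 50.6 and 39.8 at 0 h, 40.8 and 7.24 at 24 h, and none in Sham or at 6 h. Both regions were thus in the 0 h and 24 h lists only. Aqp4 region 1, on a different annotated transcript, was gained at 24 h with 58.8 and 65.4, and it was also in 1 list at 0 h (68.1) and 1 at 6 h (68.3). Its most shared stretch lay in the 5′ UTR. Only the peak of MCAO/R-24 h replicate 2 was centred there, and those of the other lists were centred in the coding sequence. Gja1 region 7 in the 3′ UTR was gained at 24 h with 47.4 and 82.5, and it had 87.8 in 1 list at 0 h. In both, the single values at the earlier times were above both 24 h values.

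The remaining gains were Cspg4 region 16 at 0 h and Itgam region 6 at 6 h. Cspg4 encodes the NG2 proteoglycan of progenitors, and region 16, at the end of its coding sequence, had percentiles of 35.5 and 64.6 at 0 h and 7.54 in 1 list at 6 h. Itgam encodes the complement receptor subunit CD11b, and region 6 in its 3′ UTR had 58.7 and 14.7 at 6 h and 16.9 in 1 list at 24 h. The peak behind the highest of these spanned the exons of 3 annotated genes, and of the 404 member peaks 7 overlapped more than 1 gene.

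On the side of losses, Sox9 region 4 in the coding sequence was present in Sham at 20.7 and 38.2 and in no MCAO/R list. Sox9 region 6, also coding, had 38.8 and 76.0 in Sham, 61.8 in 1 list at 0 h, 51.1 in 1 list at 6 h and no peak at 24 h. Other coding peaks of Sox9 were found after reperfusion and not in Sham, such as those centred at -133 nt from the stop codon in 1 list at 6 h (63.8) and 1 at 24 h (54.4). P2ry12 region 1 in the 5′ UTR had 60.3 and 79.8 in Sham, 66.5 in 1 list at 0 h, none at 6 h and 25.0 in 1 list at 24 h, so it was called lost at 6 h. Serpina3n region 1 had 5.76 and 24.3 in Sham, 61.2 and 54.7 at 0 h, 72.6 in 1 list at 6 h and none at 24 h.

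**Figure D5:**
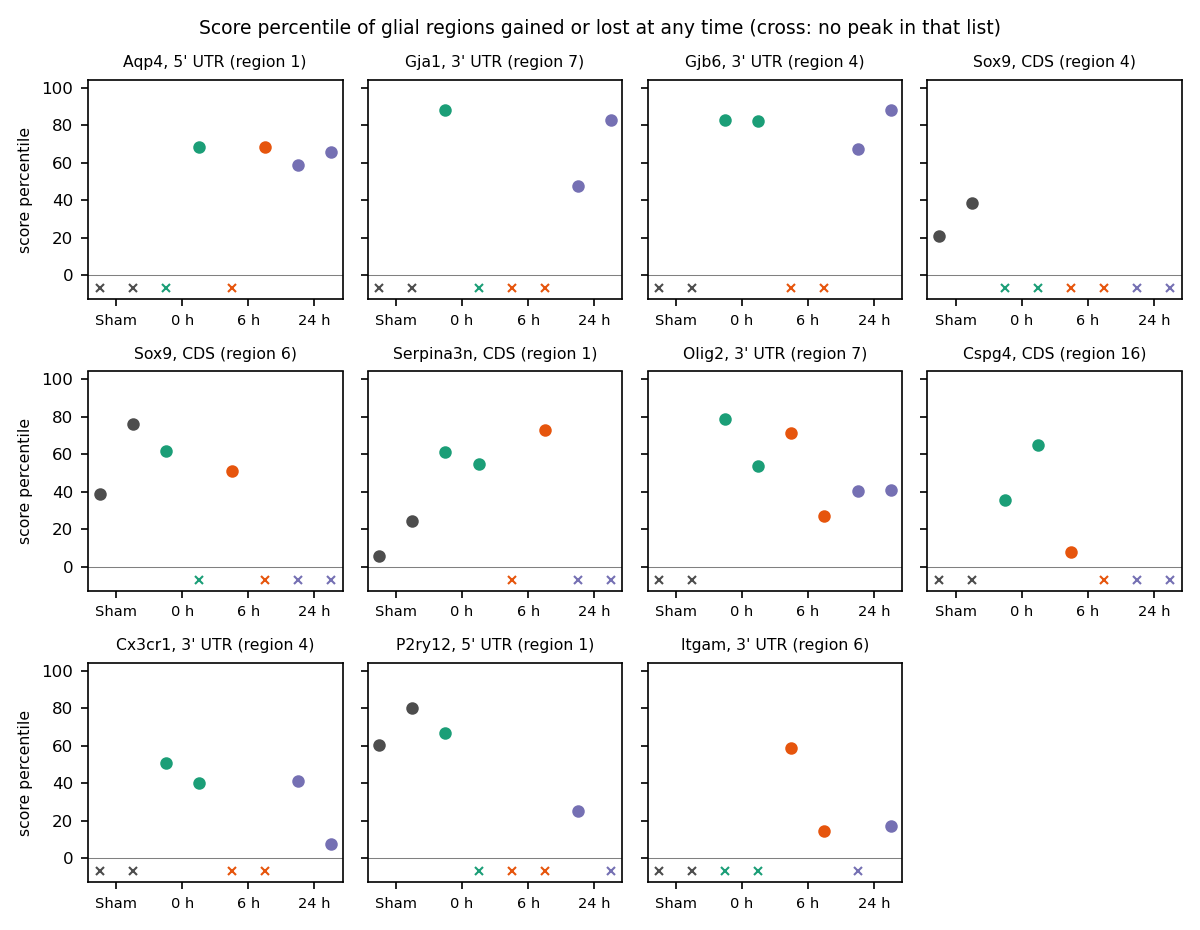
Points are the score percentile of the 11 member regions gained or lost at any time in each of the 8 lists, and crosses mark lists with no peak. Olig2 region 7 has crosses only in Sham, Sox9 region 4 has points only in Sham, and Gjb6 region 4 and Cx3cr1 region 4 have points at 0 h and 24 h only.

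The other members were marked in part of the lists, and none of them was gained or lost as a gene against Sham. Between reperfusion times, Tmem119 and Mal were in both 0 h lists and neither 6 h list. Mbp was in both 0 h lists and neither 24 h list. These differences were not tested. The share of all marked genes that met the same rule between reperfusion times was not counted, so they have no rate beside them. Gjb6 and Slc1a2, the latter encoding the main astrocyte glutamate transporter GLT-1, were marked in 7 lists, as were Myrf, a myelin gene regulator, and Csf1r, the receptor for the microglial survival factor CSF1. S100b, a calcium-binding protein, Mog, a myelin surface glycoprotein, and Itgam were in 6 lists like Serpina3n, and C1qa was in 5. Mbp, the major cytoplasmic myelin protein, Mal, a myelin proteolipid, Tmem119, a microglial membrane marker, and C1qb were in 4, C1qc in 3 and Vim, an intermediate filament gene of astrocytes and vascular cells, in 2. The glutamate transporter Slc1a3, the folate enzyme Aldh1l1, glutamine synthetase (Glul) and the lysosomal glycoprotein Cd68 were each in 1 list.

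Mog and S100b were each marked through a single 3′ UTR region. That of Mog had percentiles of 68.0 in 1 Sham list, 69.0 in 1 list at 0 h, 61.3 and 67.7 at 6 h, and 66.4 and 56.9 at 24 h. That of S100b had 32.2 in 1 Sham list, 32.1 and 48.7 at 0 h, 55.2 and 33.1 at 6 h, and 47.3 in 1 list at 24 h. Where found, the Mog region thus stayed between 56.9 and 69.0 and the S100b region between 32.1 and 55.2. Mbp peaks ranked low, from 2.91 to 27.4, and lay in 5 regions, none in more than 2 lists.

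Genes of other marker lists were counted in the same way. They lie beyond the 38 except for Cspg4, a member that is also in the endothelial and mural list and is counted there. A peak was present for 10 of 23 other astrocyte genes, 22 of 30 reactive astrocyte genes, 24 of 28 other oligodendrocyte lineage genes and 24 of 37 other microglia and macrophage genes. The tissue held peaks on 10 of 15 neuron markers, 10 of 12 endothelial and mural markers, 4 of 5 choroid plexus and ependyma markers and 1 of 11 blood leukocyte markers. The limma fit could take only regions found in all 8 lists. These were 5 for other astrocyte, 3 for reactive astrocyte, 17 for other oligodendrocyte lineage and 3 for other microglia and macrophage genes. Neuron markers had 2, endothelial and mural markers 1, and the last 2 lists 0. None was called, as for all 4508 regions, and genes gained or lost could not enter the fit through the region concerned.

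Among reactive astrocyte genes outside the set, 6 of the 22 marked (27.3%) were gained at 24 h, Osmr, Cd44, Iigp1, Ptx3, B3gnt5 and Cd14, beside 3.91% of all marked genes. The 24 h percentiles were 51.2 and 81.2 for Osmr, the oncostatin M receptor, 64.3 and 65.1 for the hyaluronan receptor Cd44, and 59.3 and 58.2 for the pentraxin Ptx3. Ptx3 had a peak at no other time, Osmr had one in 1 list each at 0 h and 6 h, and Cd44 in 1 list at 6 h. At 0 h 1 of the 22 (4.55%), Cp, was gained, beside 3.59% of all marked genes, and at 6 h 3 (13.6%), Cp, Ptgs2 and Cd14, beside 4.81%. Stat3, a transcription factor of astrocyte reactivity, was lost at all 3 times, with Sham percentiles of 29.3 and 37.7. It is 1 of the 22 (4.55%), and 1.40%, 1.52% and 2.20% of all marked genes were lost at 0 h, 6 h and 24 h.

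Of the 24 marked other oligodendrocyte lineage genes, 2 were gained at 0 h (8.33%), Opalin and Tcf7l2, 3 at 6 h (12.5%), these and Nkx2-2, and 1 at 24 h (4.17%), Zfp488, where all marked genes gave 3.59%, 4.81% and 3.91%. Of the 24 marked other microglia and macrophage genes, 3 were gained at 0 h (12.5%), 2 at 6 h (8.33%) and 3 at 24 h (12.5%). These were Gpr34, Spi1 and Cd33 at 0 h, Siglech and Cd14 at 6 h, and Gpr34, Cd14 and Msr1 at 24 h, with Cd14 counted in both lists that hold it. Other astrocyte genes had no gain or loss, and apart from Stat3 no gene of these lists was lost. Of the 10 marked neuron markers, 1 was gained at 0 h (10%), Gad2, and 1 at 24 h (10%), Map2. Of the 10 marked endothelial and mural markers, 2 were gained at 0 h (20%), Pecam1 and Kdr, and 1 at 24 h (10%), Pecam1. All marked genes gave 3.59% and 3.91% at these times. With 10 marked genes in each list, 1 gained gene already gives 10%, so any gain lies above the share of all genes. At 6 h 0 genes of either list were gained, beside 4.81% of all marked genes.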

How the data were processed

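MeRIP-seq libraries were prepared from Sham tissue and from tissue at 3 times of reperfusion after MCAO, 2 immunoprecipitated libraries a group. Per the methods of the study and the labels, RNA was fragmented (about 100 nt in the former, about 200 nt in the latter), reads were trimmed with Trim Galore and aligned to GRCm39 with HISAT2, multi-mapped reads were removed with SAMtools, and the authors called peaks in each library with exomePeak2. The deposited lists give each peak's position, strand and score, and the scale of the score is not given in the sources used here. Depth is not recoverable from them.

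Peaks were assigned by strand to exons of GENCODE M39 protein-coding transcripts. Within a gene, peaks sharing at least 1 exonic base were joined into regions. Distances were counted on the transcript with the longest coding sequence. Scores were turned into percentiles and normal scores within a list. Regions in all 8 lists were tested with limma 3.58.1 (R 4.3.3), all groups in one fit, with Benjamini-Hochberg adjustment over 4508 regions and a threshold of 0.05; the scripts were tested on simulated data. Joining and counting used Python 3.11.15 and numpy 2.4.6.

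The members, the marker lists and the comparisons were chosen with earlier results of these data known. Values in every list are given for members with a region in all 8 lists and for those gained or lost; other members named with values were chosen after their values were seen. Alternatives were an equal number of peaks per list, the higher-scoring 50%, the gene with the most overlap, exons of all transcripts, stricter joining, a 75 nt minimum, other windows and motifs, other limma inputs, the replicate number as a block, and leaving out each library. Input libraries were not analysed here.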

Additional observations from a re-analysis of the deposited data

How the results depend on the processing

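Across alternatives other than leaving out a library, the number of members marked and of regions in all lists moved only when the higher-scoring 50% of each list was kept, to 13.1 members marked per list (astrocyte 5.25, oligodendrocyte lineage 4.88, microglia 3) and 5 regions in all 8 lists. The cause of the moves below was not tested where the setting does not itself remove peaks. With the higher-scoring 50%, member genes gained numbered 3 at 0 h and 1 at 6 h, genes lost 2 at 6 h and 0 at 24 h, regions gained 7, 1 and 3 at 0, 6 and 24 h, and regions lost 0 at 0 h. With an equal number of peaks per list, 1 gene was lost at 0 h and 1 at 6 h, 2 regions were lost at 0 h and 1 was gained at 6 h. With peaks of at least 75 nt, 1 gene was gained and 1 lost at 6 h. Joining peaks at 50% of the shorter one gave 7 regions gained at 0 h. Peak centres near the stop codon averaged 9.51% within 100 nt and 43.7% within 400 nt, and GGACU alone occurred 1.33 times per kb.

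Leaving out 1 library, which leaves 1 list in a group, gave 0 to 4 member genes gained at 0 h, 1 to 3 at 6 h and 0 to 2 at 24 h, and 0 to 1, 0 to 2 and 2 to 3 lost. Regions gained ranged over 8 to 21, 4 to 18 and 7 to 19, and regions lost over 3 to 14, 4 to 19 and 5 to 18. In limma, where the lone list is assumed to vary like the other groups, 0 member regions were called with any 1 library left out, and 0 to 8 of all regions. The 6 MCAO/R lists together against Sham called 0. With regions in at least 6 lists and missing lists set to the lowest rank, limma called 132, 159 and 208 of 8183 regions and 1 member gene, Olig2, at each time; this setting admits regions absent from both lists of 1 group. The other inputs called 0 member regions and 0 to 2 of all regions.

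The labels do not say whether the replicate numbers stand for a batch. Deviations of libraries with the same number from their group means correlated at 0.0452 to 0.0857 over 4508 regions. The replicate 2 list was the longer in every group, and whether a batch goes with the number was not tested. With the number as a replicate block, limma called 0 regions and 0 member regions at each time. The depth of the libraries is unknown, so a missing peak sets no limit on methylation.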
